A study of Mus musculus with 18 samples.

Results

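The 9 transcription factors described here were grouped as factors of intestinal and regional identity of gut epithelium. They were followed from freshly isolated duodenal crypts into enteroids. They are Cdx1, Cdx2, Hnf4a, Hnf4g, Gata4, Gata6, Pdx1, Onecut2 and Klf4, a list of 9 genes taken by name from the 17759 genes in the crypt table, the 17423 in the day 1 table and the 17612 in the day 3 table. All 9 were in each table and passed the filter for testing, a mean of at least 10 normalized counts over its 6 libraries. Crypts came from the duodenum of 3 WT (Mtgr1+/+) and 3 Mtgr1-/- mice, which lack the transcriptional corepressor MTGR1 in all tissues, and each mouse gave crypts (day 0), enteroids 24 h after plating (day 1) and enteroids at 72 h (day 3), 18 libraries in all. Enteroids are small intestinal organoids grown from crypts in Matrigel, here from littermates aged 8 to 12 weeks, with males and females in the study. The labels do not say which mice shared a litter or a sex, and p-values measure the spread between 3 mice a group.

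CDX1 and CDX2 are caudal-type homeodomain factors of intestinal epithelium, and CDX2 keeps it from taking on the character of stomach. HNF4A and HNF4G are paralogous nuclear receptors that drive enterocyte genes, and GATA4 and GATA6 are zinc finger factors, of which GATA4 is restricted to the proximal small intestine. PDX1 and ONECUT2 are homeodomain factors of the duodenum, and KLF4 is a zinc finger factor tied to cell cycle exit and goblet cell differentiation.

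In the 16 libraries whose reads could be recovered from the deposited values, 22035316 to 28621990 reads lay on genes. Cbfa2t2, the gene that encodes MTGR1, was not lower in libraries labelled Mtgr1-/- and passed the test at no time (adjusted p of 0.917, 0.0557 and 0.686, limma). Its normalized counts were 523 to 614 in WT crypts and 466 to 697 in crypts labelled Mtgr1-/-, 710.2 to 788 against 789 to 1160.3 at day 1, and 774 to 883 against 766 to 976 at day 3, and where the allele is disrupted is not given in the sources used here. This count therefore does not check the labels, and the genotypes below are those of the labels. Other genes did differ by label in crypts, among them the stem cell gene Olfm4 (29968 ± 3831 normalized counts in WT and 314 ± 190 in those labelled Mtgr1-/-, SD, n = 3, log2 fold change -6.77, adjusted p = 0.000621, limma). The tissue label was checked against markers. The 5 epithelial markers (Epcam, Cdh1, Krt8, Krt18 and Krt19) summed to between 5193 and 9984 CPM (normalized counts per 1000000 of a library's total), 7 mesenchymal markers to at most 3.75 CPM, and Fabp6, an ileal gene, had a mean of at most 4.59 normalized counts at any time. WT crypts of mouse 3 stood apart by a leukocyte marker sum of 339 CPM, against 24.99 to 51.2 in the other 5 crypt libraries. Crypts labelled Mtgr1-/- of mouse 2 stood apart by a Paneth cell marker sum of 1788 CPM, against 49.4 and 73.5 in the other crypts of that genotype.

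In WT crypts the factors spanned a wide range of levels. Per kilobase of merged exons, in CPM, Hnf4a was highest (199 ± 19.8, mean ± SD, n = 3) and Hnf4g next (123 ± 12.7). Cdx1 (66.9 ± 2.41) and Cdx2 (63.6 ± 3.64) followed, and their libraries overlapped. Gata4 (53.8 ± 6.67) and Klf4 (33.8 ± 10.3) lay below them, with no overlap between them or with their neighbours above. Gata6 (12.8 ± 0.730) came next, and Pdx1 (9.84 ± 2.72) and Onecut2 (7.45 ± 1.28) were lowest and overlapped each other. Onecut2 has 16234 bases of merged exons, the most of the 9 genes.

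The promoters of Klf4 and Pdx1, the members with the largest increases at day 3, are shown with that of Cdx2, a neighbour of Pdx1 that did not pass the test at that time. Pdx1 (chr5:147269959-147275848, plus strand, GRCm38) and Cdx2 (chr5:147300805-147307270, minus strand) are separated by 24956 bases. Each stretch comes from the 250 bases before the RefSeq transcription start (GRCm38.p6), without bases inside the GENCODE gene. It is written 5′ to 3′ on the strand of the gene. This left 112 bases for Pdx1 and 229 for Cdx2, which end at the start of the GENCODE gene and not at the RefSeq start. Capitals mark the E-box CAGCTG, bound by basic helix-loop-helix factors, and GGGCGG or CCGCCC, the core bound by KLF and SP factors.

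Klf4, chr4:55532476-55532725, minus strand: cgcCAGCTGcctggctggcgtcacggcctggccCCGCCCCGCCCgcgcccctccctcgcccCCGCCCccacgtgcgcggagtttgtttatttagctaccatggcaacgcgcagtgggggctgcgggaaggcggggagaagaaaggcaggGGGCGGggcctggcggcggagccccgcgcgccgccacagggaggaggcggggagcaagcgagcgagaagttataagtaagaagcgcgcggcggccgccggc
Pdx1, chr5:147269847-147269958, plus strand: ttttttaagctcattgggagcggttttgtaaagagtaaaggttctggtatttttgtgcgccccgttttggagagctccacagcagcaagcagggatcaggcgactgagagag
Cdx2, chr5:147307271-147307499, minus strand: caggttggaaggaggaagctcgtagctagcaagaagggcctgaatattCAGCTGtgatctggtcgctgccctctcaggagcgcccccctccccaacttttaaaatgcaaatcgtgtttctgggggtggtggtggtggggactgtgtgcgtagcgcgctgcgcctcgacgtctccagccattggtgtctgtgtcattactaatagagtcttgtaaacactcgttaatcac

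In the 250 bases before the RefSeq start of Klf4, GGGCGG was found 4 times over both strands, with 1 pair of matches overlapping, and CAGCTG once. The Cdx2 window held 1 CAGCTG and the Pdx1 window 1 CAGGTG, and neither held GGGCGG. That CAGGTG lies in bases not shown, inside the GENCODE gene. Of 32851 promoter windows of this length, 32.7% held GGGCGG and 17.2% CAGGTG, and 4271 windows held CAGCTG. None of the 3 windows held AGATAA, letters found in GATA sites, which 9.99% of all windows held. They likewise lacked TTTATG, found in CDX sites and held by 10.8% of windows, and CAAAGT, found in HNF4 sites and held by 12.6%. Promoters of 4 of the 9 genes were in the table used, and the fourth, Hnf4a, has a second promoter from which its gene-level count was not separated.

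In crypts, no member passed the test between genotypes (0 of 9 at an adjusted p under 0.05, limma), and 0 of 9 did so at an unadjusted p under 0.05. Tests on recovered reads with edgeR and DESeq2, run without WT mouse 2, also called 0 of 9. Over all genes, edgeR called 52 higher and 157 lower, and DESeq2 434 and 766. Of all 12980 genes tested with limma in crypts, 4.73% were called, 1.58% higher and 3.15% lower in the libraries labelled Mtgr1-/-. Cdx1 was the 1 member whose libraries did not overlap between genotypes, which held for 25.5% of all genes. Its normalized counts were 3054, 2909 and 2963 in WT crypts and 2541, 2736 and 2698 in the others, which is -0.16 on the log2 scale (95% interval -0.34 to 0.015, adjusted p = 0.314, limma). The bounds were widest for Klf4 (-1.10 to 0.23) and Pdx1 (-0.88 to 0.78), so differences inside these bounds are not excluded by the data. For the remaining members, the interval reached no further than 0.65 in either direction.

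At day 1, 8 of the 9 genes passed the test, 7 of them higher and Cdx1 lower in the enteroids labelled Mtgr1-/-. Of all 12587 genes tested, 58.9% were called at this time, 30.0% higher and 28.9% lower. Libraries did not overlap between genotypes for 8 of 9 members and for 68.1% of all genes. At day 3, 6 of 9 passed, 5 higher and again Cdx1 lower, where 59.0% of 12782 genes were called, 29.9% higher and 29.1% lower. For 5 of 9 members the day 3 libraries did not overlap, against 68.8% of all genes. With most genes of these enteroids called, the share of members called is not a result about the members, and their direction and size are given gene by gene.

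The median log2 fold change of the 9 genes was 0.50 at day 1 and 0.30 at day 3, beside -0.008 and 0.003 over all genes. These values follow the deposited normalization, and the total of normalized counts was larger in enteroids labelled Mtgr1-/- (27141338 to 31152183 at day 1) than in WT (22946791 to 24911854). With each library scaled to the same total instead, an alternative chosen after the data were seen, the median of all genes moved to -0.33 at day 1 and -0.20 at day 3. The split of called genes then moved from 3776 higher and 3637 lower to 2198 and 5606 at day 1, and from 3826 and 3719 to 2741 and 5087 at day 3. On that scale 3 members were called at day 1 (Hnf4g and Onecut2 higher, Cdx1 lower) and 5 at day 3, and the median of the 9 genes was 0.18 and 0.10, still above the median of all genes. Ratios between 2 genes of one library, given for the paralogs, do not change with a factor applied to the whole library.

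**Figure D1:**
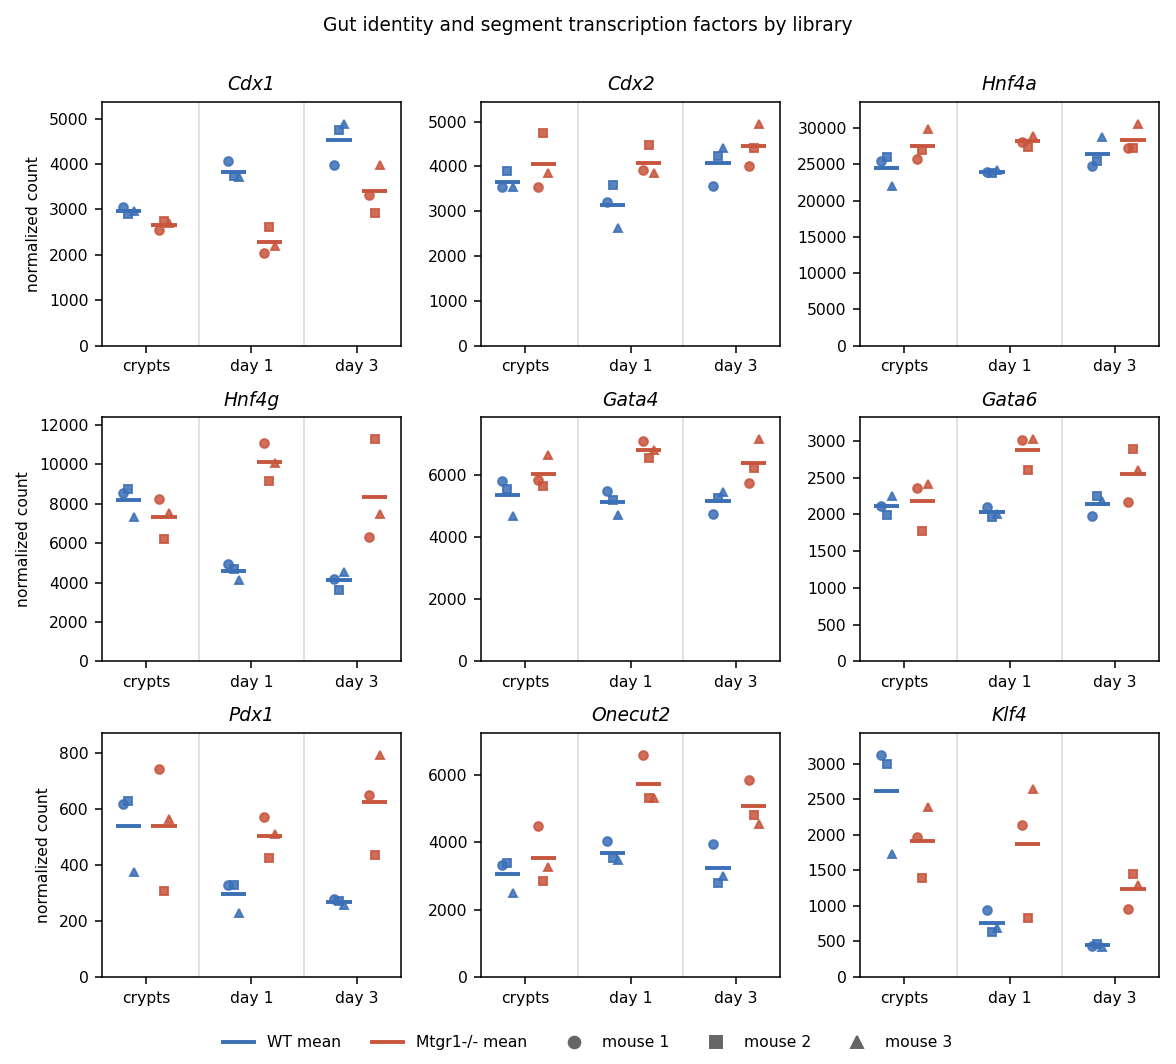
Normalized counts of the 9 genes in each library (vertical axes, from 0) in crypts and enteroids (horizontal axes), with 3 WT mice in blue, 3 Mtgr1-/- mice in red and lines at the group means. Tables of the 3 time points were normalized separately. Hnf4g and Pdx1 separate at both enteroid times and overlap in crypts, and Klf4 separates at day 3 only, with Mtgr1-/- mouse 2 inside the WT range at day 1.

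**Figure D2:**
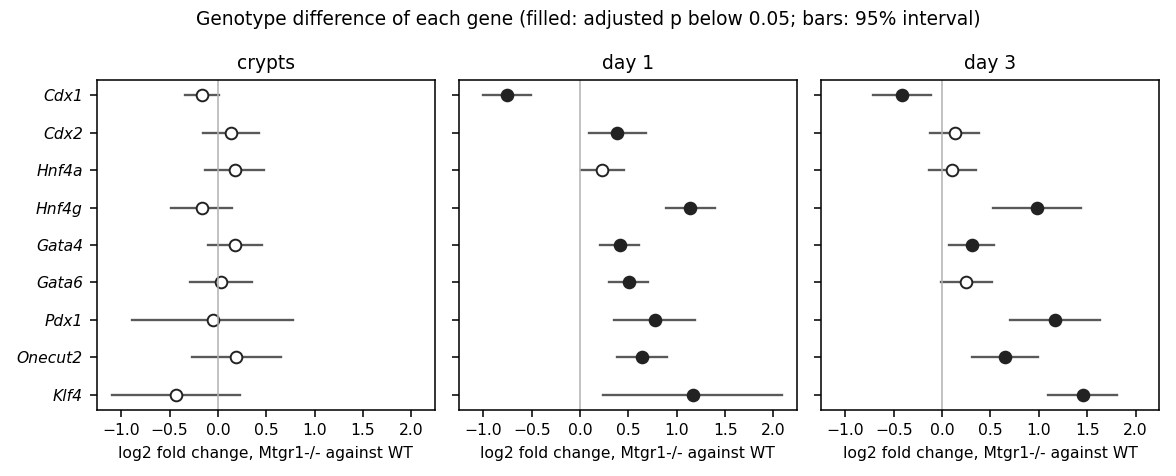
Log2 fold change of each gene, Mtgr1-/- against WT, with its 95% interval, in crypts and at day 1 and day 3, with filled points for an adjusted p under 0.05 (limma). No gene is filled in crypts, 8 are at day 1 and 6 at day 3, and Cdx1 is the 1 filled gene below 0 at both times.

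At day 1 the caudal factors moved in opposite directions on the deposited scale. Cdx1 (chr18:61018862-61036199, minus strand) had 4059, 3726 and 3715 normalized counts in WT enteroids at day 1 and 2043, 2618 and 2190 in those labelled Mtgr1-/-. All 3 values of the second group lay below all 3 of the first, and the log2 fold change was -0.75 (SE 0.11, adjusted p = 0.000925, limma). At day 3 the counts were 3976, 4746 and 4888 against 3317, 2915 and 3988, and mouse 3 of the second group overlapped mouse 1 of WT. The log2 fold change was -0.42 (SE 0.13, adjusted p = 0.0238, limma), and it did not pass without WT mouse 2 (adjusted p = 0.0811), without WT mouse 3 (0.0873) or without the trend in the variance (0.0518).

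Cdx2, the paralog whose loss in intestine gives gastric features, did not follow Cdx1. Its normalized counts at day 1 were 3210, 3583 and 2632 in WT and 3925, 4482 and 3845 in enteroids labelled Mtgr1-/-, and the groups did not overlap (log2 fold change 0.39, SE 0.13, adjusted p = 0.0303, limma). This call was lost in 8 of 18 alternatives, among them the same total (0.07, adjusted p = 0.729), quantile normalization (0.13, adjusted p = 0.494) and edgeR (0.35, adjusted p = 0.0504). It was also lost without WT mouse 1 (0.41), WT mouse 3 (0.26), Mtgr1-/- mouse 1 (0.41) or Mtgr1-/- mouse 2 (0.32), with adjusted p-values of 0.0598 to 0.094. At day 3 the counts were 3572, 4244 and 4420.0 against 4007, 4412 and 4953, with a log2 fold change of 0.13 (95% interval -0.13 to 0.39) that turned to -0.07 with the same total and to -0.08 with quantile normalization. In crypts, Cdx2 had 3541, 3894 and 3537 counts against 3549, 4747 and 3843.

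The ratio of Cdx1 to Cdx2 within a library separated the genotypes at all 3 times. It was 1.26, 1.04 and 1.41 in WT enteroids at day 1 and 0.520, 0.584 and 0.570 in those labelled Mtgr1-/-, which differ by -1.14 on the log2 scale. At day 3 it was 1.11, 1.12 and 1.11 against 0.828, 0.661 and 0.805, a difference of -0.55. In crypts the mean log2 ratios were -0.30 ± 0.11 (SD, n = 3) and -0.60 ± 0.17, a difference of -0.30. Each had an exact permutation p of 0.1 (two-sided), the smallest that 3 against 3 libraries allow, and 0.15 after adjustment over 9 ratios, so the design could not reach 0.05.

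Hnf4g and Hnf4a, the receptors that drive enterocyte genes, differed in how far they moved. Hnf4g (chr3:3508030-3658052, plus strand) had 4944, 4701 and 4109 normalized counts in WT at day 1 and 11075, 9149 and 10078 in enteroids labelled Mtgr1-/-. The groups lay far apart, and the fold change was 2.20 (log2 1.14, SE 0.11, adjusted p = 0.000217, limma). At day 3 the counts were 4171, 3638 and 4556 against 6300, 11264 and 7466, again without overlap, with mouse 2 highest (log2 fold change 0.98, SE 0.20, adjusted p = 0.0036, limma). Hnf4g was called in all 18 alternatives at both times. In crypts, where counts were 8542, 8734 and 7328 against 8218, 6232 and 7511, the log2 fold change was -0.17 (adjusted p = 0.557, limma).

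Hnf4a (chr2:163506808-163572910, plus strand) rose less, if at all. Its counts were 23950.0, 23792 and 24254 in WT at day 1 and 28106, 27372 and 28938 in enteroids labelled Mtgr1-/-. The groups did not overlap, yet the log2 fold change of 0.23 (SE 0.096) did not pass the test (adjusted p = 0.0717, limma). It passed in 5 of 18 alternatives, of which 1 was DESeq2 (adjusted p = 0.00402). The others, with limma, were array weights (adjusted p = 0.0224), the mouse number as a block (0.0364), no trend (0.0461) and no Mtgr1-/- mouse 2 (0.0498). It did not pass with edgeR (adjusted p = 0.0835). It turned to -0.09 with the same total and to -0.22 with quantile normalization. At day 3 the counts were 24797, 25507 and 28750 against 27174, 27244 and 30580, with an interval of the log2 fold change from -0.14 to 0.35. In crypts they were 25439, 25982 and 21997 against 25722, 26969 and 29919. Hnf4aos, an antisense gene that overlaps Hnf4a without overlapping exons, had at most 31.7 counts in any library.

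The number of Hnf4a counts per Hnf4g count therefore diverged between the genotypes in culture. It was 4.84, 5.06 and 5.90 in WT at day 1 and 2.54, 2.99 and 2.87 in enteroids labelled Mtgr1-/-, and 5.94, 7.01 and 6.31 against 4.31, 2.42 and 4.10 at day 3. The log2 ratio differed by -0.91 at day 1 and by -0.87 at day 3, without overlap. In crypts the difference had the opposite sign, 0.34, with means of 1.58 ± 0.0071 (SD, n = 3) and 1.92 ± 0.24. The exact permutation p was 0.1 at each time, the smallest possible, and 0.15 after adjustment.

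**Figure D3:**
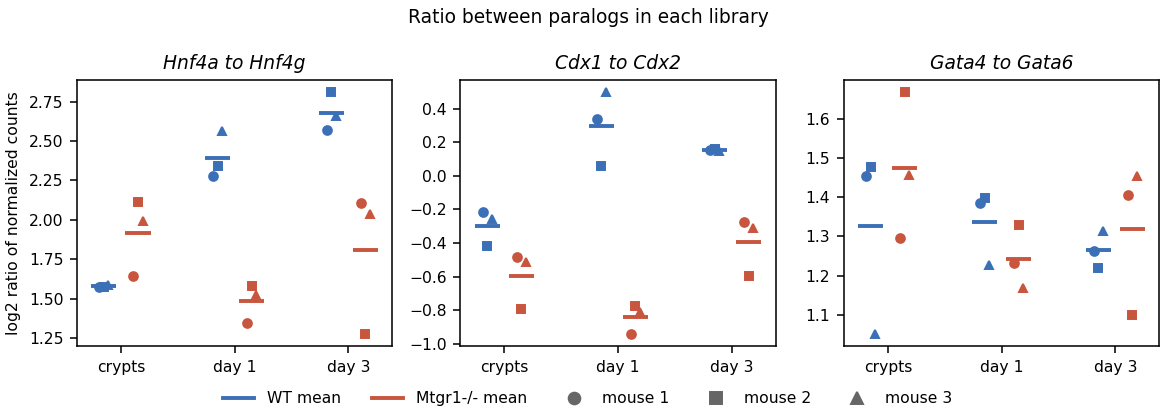
Log2 ratio of normalized counts (vertical axes) of Hnf4a to Hnf4g, Cdx1 to Cdx2 and Gata4 to Gata6 in each library of the 3 times (horizontal axes), with WT in blue, Mtgr1-/- in red and lines at the means of 3 mice. The first 2 ratios do not overlap between genotypes at any time, while that of Gata4 to Gata6 overlaps in crypts and at both enteroid times.

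Gata4 and Gata6 both rose at day 1 on the deposited scale, although neither passed with the same total. Gata4 (chr14:63198922-63271692, minus strand) had 5483, 5193 and 4713 normalized counts in WT and 7073, 6549 and 6789 in enteroids labelled Mtgr1-/-, without overlap (log2 fold change 0.41, SE 0.088, adjusted p = 0.00519, limma). At day 3 the counts were 4738, 5243 and 5431 against 5737, 6211 and 7131, which did not overlap (0.30, SE 0.10, adjusted p = 0.031, limma). Of 18 alternatives 7 lost this call, among them WT mouse 1, 2 or 3 or Mtgr1-/- mouse 3 left out (0.25, 0.32, 0.35 and 0.22, adjusted p = 0.0513 to 0.112). With the same total, both differences shrank below the threshold, to 0.09 at day 1 and 0.10 at day 3. Quantile normalization also ended both calls, leaving 0.08 and 0.07 (adjusted p = 0.431 and 0.526). In crypts, Gata4 had 5805, 5538 and 4676 counts against 5812, 5630.0 and 6628.

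Gata6 (chr18:11052064-11085635, plus strand) had 2101, 1970.3 and 2012 counts in WT at day 1 and 3012, 2605 and 3021 in enteroids labelled Mtgr1-/-, with no overlap (log2 fold change 0.50, SE 0.088, adjusted p = 0.00215, limma). Its day 3 counts of 1975, 2251 and 2185 overlapped those of 2166, 2896 and 2602, and the difference of 0.25 did not pass (adjusted p = 0.0935, limma), being 0.36 without Mtgr1-/- mouse 1 (adjusted p = 0.0133) and 0.15 without Mtgr1-/- mouse 2 (adjusted p = 0.219). The day 1 call was lost with the same total (0.18, adjusted p = 0.0579). In crypts the counts were 2119, 1989 and 2256 against 2365, 1773 and 2416. The antisense gene 1010001N08Rik shares exonic bases with Gata6 and had 82.8 to 279 counts, and how the quantification used strand is not given in the sources used here.

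The ratio of Gata4 to Gata6 did not separate the genotypes. It was 2.61, 2.64 and 2.34 in WT at day 1 and 2.35, 2.51 and 2.25 in enteroids labelled Mtgr1-/-. On the log2 scale it differed by 0.15 in crypts, -0.093 at day 1 and 0.055 at day 3 (exact permutation p of 0.5, 0.3 and 0.7).

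Pdx1 and Onecut2, the duodenal homeodomain factors, were both higher in enteroids labelled Mtgr1-/- at both times. Pdx1 had 328, 328 and 229 normalized counts in WT at day 1, against 570.3, 425 and 508, which is 1.71 times the WT level (log2 0.77, SE 0.18, adjusted p = 0.0078, limma). At day 3 the counts were 280, 273 and 256 against 647, 435 and 792, a fold change of 2.25 (log2 1.17, SE 0.20, adjusted p = 0.00172, limma). Neither time showed overlap, and among mice labelled Mtgr1-/- mouse 2 was lowest at each time, crypts included. The day 1 call was lost only with the same total among 18 alternatives (0.45, adjusted p = 0.0529), and the day 3 call in none. WT crypts had 616, 628 and 373 counts and the other crypts 740.3, 308 and 565, a spread within each genotype larger than the difference between them. Plut, an antisense gene that overlaps Pdx1 without shared exonic bases, had 62.8 to 246 counts in crypts and 39.8 to 81.6 in enteroids.

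Onecut2 (chr18:64340020-64400987, plus strand) had 4027, 3521 and 3479 counts in WT at day 1 and 6593, 5323 and 5324 in enteroids labelled Mtgr1-/-, a fold change of 1.56 (log2 0.64, SE 0.11, adjusted p = 0.00218, limma). At day 3 it had 3949.9, 2789 and 3001 against 5863, 4802 and 4534, a fold change of 1.57 (log2 0.65, SE 0.15, adjusted p = 0.00628, limma). The groups did not overlap at either time, and all 18 alternatives kept both calls. In crypts the counts of 3316, 3401 and 2505 overlapped those of 4480.3, 2861 and 3259.

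Klf4 (chr4:55527143-55532466, minus strand) showed the largest fold of the 9 genes at day 3. Its normalized counts there were 439, 471 and 422 in WT and 950.0, 1453 and 1300.2 in enteroids labelled Mtgr1-/-, a fold change of 2.73 (log2 1.45, SE 0.15, adjusted p = 0.000173, limma). The groups were far apart, and the call held in all 18 alternatives. At day 1 the counts were 938, 636 and 691 against 2139, 824 and 2638, where mouse 2 of the second group lay within the WT range. The log2 fold change of 1.16 (SE 0.40, adjusted p = 0.0356, limma) was 1.67 without that mouse (adjusted p = 0.000174, limma). It was lost in 6 of 18 alternatives, including those without WT mouse 2 (1.05), WT mouse 3 (1.11), Mtgr1-/- mouse 1 (0.98) or Mtgr1-/- mouse 3 (0.83), with adjusted p-values of 0.0896 to 0.112. In crypts Klf4 had 3122, 2996 and 1731 counts in WT and 1975, 1392 and 2394 in the others, and the difference was -0.43 on the log2 scale (adjusted p = 0.471, limma). That difference was -0.71 without WT mouse 3, the library with the high leukocyte marker sum (adjusted p = 0.169, limma), and -0.22 without Mtgr1-/- mouse 2, the library with the high Paneth cell marker sum (adjusted p = 0.726, limma). It was -0.28 without WT mouse 1 (adjusted p = 0.751, limma).

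Whether a genotype difference itself changed between times was tested in 1 model over the 18 libraries. From crypts to day 1 it changed for 4 of 9 members, where 41.4% of 12145 genes were called. Hnf4g gained 1.31 (SE 0.24, adjusted p = 0.00167, limma), Klf4 1.60 (SE 0.49, adjusted p = 0.018, limma) and Gata6 0.47 (SE 0.17, adjusted p = 0.0366, limma), while Cdx1 changed by -0.59 (SE 0.16, adjusted p = 0.00937, limma). From crypts to day 3 it changed for 3 of 9, where 31.6% of genes were called, namely Hnf4g (1.15, SE 0.24, adjusted p = 0.00448, limma), Klf4 (1.88, SE 0.49, adjusted p = 0.0121, limma) and Pdx1 (1.22, SE 0.41, adjusted p = 0.0352, limma). Between day 1 and day 3 no member passed (0 of 9, also at an unadjusted p under 0.05), where 0.0329% of genes were called. In that comparison Cdx1 had the smallest p, with a change of 0.33 (SE 0.16, unadjusted p = 0.0526, adjusted p = 0.697, limma).

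The path from crypts into culture was then described for each genotype, in CPM and with no test, since the tables were normalized separately. Klf4 in WT went from 103 ± 31.4 CPM in crypts to 31.5 ± 5.35 at day 1 and 18.5 ± 1.09 at day 3 (SD, n = 3), without overlap between crypts and either later time. In mice labelled Mtgr1-/- it went from 76.4 ± 15.8 to 61.2 ± 27.9 and 44.5 ± 7.02. Hnf4g in WT went from 323 ± 33.5 to 192 ± 16.4 and 172 ± 18.7, and in the other genotype from 294 ± 42.3 to 339 ± 16.0 and 299 ± 73.3, which overlapped the crypts. Both genes thus had enteroid levels nearer the crypt level in mice labelled Mtgr1-/- than in WT.

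Pdx1 followed the same course. It went from 21.2 ± 5.87 CPM in WT crypts to 12.4 ± 2.41 and 11.2 ± 0.647, and from 21.6 ± 8.94 to 16.8 ± 1.38 and 22.9 ± 7.37 in the other genotype. Cdx1 went the other way in WT, from 117 ± 4.21 in crypts up to 161 ± 3.18 and 189 ± 18.3, with no overlap with crypts. In mice labelled Mtgr1-/- it went from 107 ± 7.66 down to 77.5 ± 16.6 at day 1 and back to 124 ± 24.1 at day 3. On a median-ratio scale over all 18 libraries, the day 3 level in WT was 0.145 of the crypt level for Klf4, 0.428 for Hnf4g, 0.426 for Pdx1 and 1.30 for Cdx1, and 0.553, 0.982, 1.00 and 1.11 in the other genotype. Hnf4a, Gata4, Gata6 and Cdx2 stayed between 0.767 and 1.18 times the crypt level in both genotypes and at both times on this scale.

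**Figure D4:**
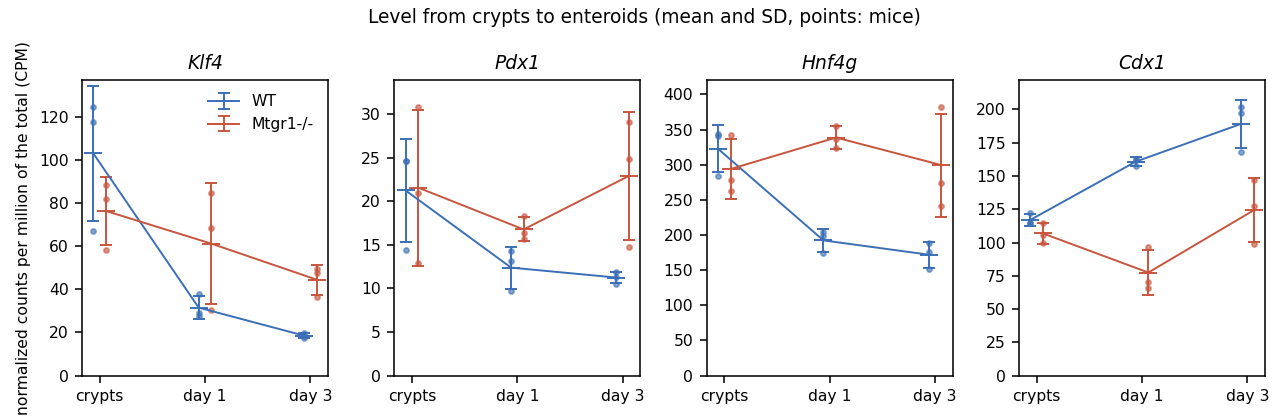
Level of Klf4, Pdx1, Hnf4g and Cdx1 in CPM (vertical axes, from 0) in crypts and at day 1 and day 3 (horizontal axes), with the mean and SD of 3 WT mice in blue and 3 Mtgr1-/- mice in red and points for single mice. WT mice fall from 103 to 18.5 for Klf4 and rise from 117 to 189 for Cdx1.

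Relatives of the 9 genes and other transcription factors of gut epithelium were read for comparison. Of 23 relatives from the CDX, GATA, ONECUT and KLF families, 12 were tested at day 1, of which 1 was higher and 2 were lower in enteroids labelled Mtgr1-/-. These 3, named after their values were seen, were Klf7 (log2 fold change 0.73), Klf12 (-0.87) and Klf16 (-0.31). At day 3, 3 of 12 were higher and 2 lower, with a median of 0.068. Klf6, an early response factor, was higher (1.25, adjusted p = 3.17e-05, limma), and the metabolic regulator Klf15 (-1.75, adjusted p = 0.0111) and Klf12 (-1.11, adjusted p = 0.0132) were lower. Gata5, another GATA factor of the gut and also named after its values were seen, rose by 0.32 at day 3 (adjusted p = 0.0353), while its difference of 0.33 at day 1 did not pass (adjusted p = 0.135). With the same total, 0 relatives were higher and 4 lower at day 1, and 1 was higher and 5 were lower at day 3.

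Of 19 other epithelial transcription factors, day 1 had 12 higher and 4 lower (median 0.58), day 3 had 10 higher and 4 lower (median 0.38), and 0 passed in crypts (limma). Maf (2.01 at day 1 and 1.97 at day 3) and Creb3l3 (1.75 and 2.05), a driver of lipid genes, were higher at both times. Foxa2 (-2.68 and -2.03) and Foxa3 (-2.15 and -1.97), forkhead factors of secretory lineages, were lower at both times. All 8 differences passed the test, with adjusted p-values of at most 0.00028 (limma). With the same total, 8 were higher at either time, and 5 lower at day 1 and 4 at day 3.

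Enterocyte genes known to be bound by CDX2 or HNF4 were higher in nearly every case. Of 15, 14 were higher and 1 was lower at day 1 (median log2 fold change 1.70), and 13 were higher and 0 lower at day 3 (median 1.60), while 0 were higher and 1 was lower in crypts (median 0.10). Apoa1 (2.82 at day 1 and 2.49 at day 3), Apob (2.06 and 2.00) and Rbp2 (2.08 and 2.10), which carry lipid and retinol, were among the largest, as was Apoc3 (2.06 and 2.00). Sis, the brush border sucrase-isomaltase and a classical CDX2 target, was the exception. Its mean was 207004 ± 14949 counts in WT crypts (SD, n = 3) and 10272 ± 5462 in crypts labelled Mtgr1-/-, which is -4.51 on the log2 scale (adjusted p = 0.00285, limma). Its difference was -2.59 at day 1 (adjusted p = 0.0015) and no longer passed at day 3 (-1.12, adjusted p = 0.0643). With the same total 13 of the 15 were higher and Sis lower at each enteroid time.

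Most tested genes listed for either end of the small intestine were higher in enteroids labelled Mtgr1-/-. Of 8 proximal genes, 6 were higher and 0 lower at both times (medians 2.29 and 1.83). Ada, whose duodenal enhancer is bound by ONECUT factors, rose by 3.50 on the log2 scale at day 1 and 3.44 at day 3 (adjusted p = 0.00157 and 7.82e-06, limma). The lactase gene Lct rose by 2.96 and 1.70, the iron exporter gene Slc40a1 by 2.57 and 3.13, Apoa4 by 2.52 and 2.41 and the folate transporter gene Slc46a1 by 2.05 and 1.94. Of 7 distal genes tested, 4 rose and 1 fell at day 1 (median 0.98), and 6 rose and 1 fell at day 3 (median 1.72). Fabp6 and Pyy lay under the minimum and were not tested at either time. The numbers of distal genes that rose with the same total were 3 and 5. On that scale 6 proximal genes rose at either time, and 1 proximal gene was lower at day 1. The bile acid exporter genes Slc51a (1.73 and 1.72) and Slc51b (2.46 and 2.01) and Fgf15 (1.45 and 1.94) were higher at both times. Slc51a and Slc51b already had means of 3253 ± 642 and 1692 ± 882 normalized counts in WT duodenal crypts (SD, n = 3). The bile acid importer gene Slc10a2 was higher at day 3 (2.04, adjusted p = 0.000116), and differed by 0.03 at day 1 (adjusted p = 0.897). Nts, a neuropeptide gene of enteroendocrine cells, was the lower one at each time, with a mean of 110 ± 35.7 normalized counts in WT crypts and 0.678 ± 1.17 in crypts labelled Mtgr1-/-.

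In crypts, the same lists gave 0 higher and 1 lower of 8 proximal genes, Slc11a2 (-0.79, adjusted p = 0.019, limma, named after its value was seen), and 0 higher and 1 lower of 6 distal genes. Summed over the list, proximal genes took 4981 to 8977 CPM in WT crypts, 2916 to 3852 at day 1 and 2217 to 2351 at day 3. In mice labelled Mtgr1-/- the sum was 5057 to 8329, 6481 to 10615 and 6060 to 9658. In WT enteroids the sum lay below the WT crypt range, and in the others it overlapped or exceeded that range.

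Stomach genes were mostly not measurable, with 9 of 14 under the minimum of 10 or not listed at each enteroid time. Of the 5 tested, 0 were higher and 3 lower at day 1, and 3 were higher and 1 lower at day 3. Pgc, the pepsinogen C gene, had 64.9 ± 10.9 normalized counts in WT at day 1 and 1.07 ± 0.112 in enteroids labelled Mtgr1-/-, and 63.1 ± 12.5 against 2.55 ± 0.759 at day 3. The gastric annexin gene Anxa10 fell at day 1 (-0.78) and rose at day 3 (2.08), as did Tff1 (-2.59 and 1.18), and Cldn18 was higher at day 3 (2.54, from a WT mean of 8.10). Summed over the list, stomach genes took at most 5.12 CPM in any crypt library. At day 1 the sum was 104 to 152 CPM in WT and 56.0 to 71.5 in enteroids labelled Mtgr1-/-. At day 3 it was 18.8 to 35.3 against 71.4 to 107, so the groups separated in opposite directions at these times. Of the 5 tested genes, Anxa10 had the largest mean over both genotypes, 2256 normalized counts at day 1 and 1392 at day 3. Sox2, the stomach factor that loss of CDX2 can release, was not listed at any time.

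**Figure D5:**
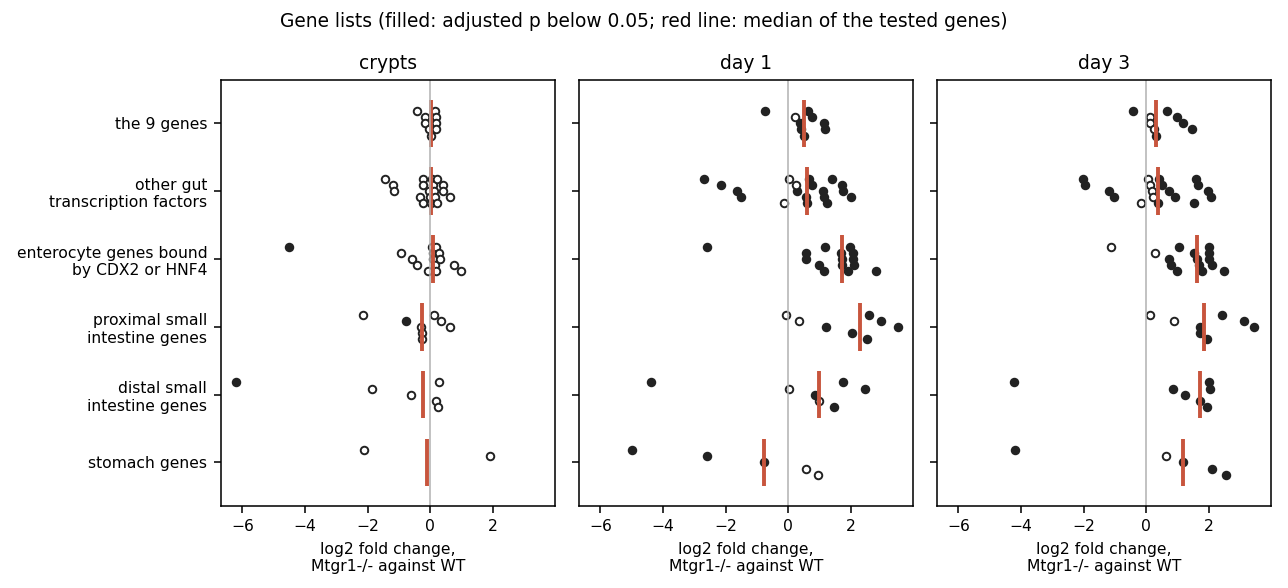
Log2 fold change of each tested gene, Mtgr1-/- against WT (horizontal axes), by list (rows) in crypts and at day 1 and day 3, with filled points for an adjusted p under 0.05 (limma) and a red line at the median of the list. The medians of proximal and distal genes lie above 0 at day 1 and day 3, Nts is the distal gene far below 0, and Sis is the point far to the left among enterocyte genes.

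Markers of other cell types also differed between the genotypes. All 4 goblet cell markers measured (Spdef, Fcgbp, Clca1 and Agr2) were lower at all 3 times, with sums of 736 to 4842 CPM in WT and 49.8 to 212 in libraries labelled Mtgr1-/-. Paneth cell markers were lower in 5 of 5 cases at day 1 and day 3, while in crypts none passed (median log2 fold change -4.48, adjusted p of 0.0734 to 0.0975, limma), and their sum in enteroids was 2672 to 4903 CPM in WT and 24.0 to 287 in the others, with mouse 2 highest at both times. Crypt base stem cell markers were lower in 5 of 5 cases at both enteroid times, where their sum was 1772 to 5299 against 132 to 465, and in crypts Olfm4 was the 1 of 5 that passed. Epithelial markers went the other way at day 3, where 4 of 5 were higher and the sum was 5321 to 5720.1 CPM in WT and 8164 to 9191 in the others. Enteroendocrine markers were lower in 5 of 5 cases in crypts, 4 of 5 at day 1 and 5 of 5 at day 3. Tuft cell markers did not share one direction over the times. Their sum was 45.5 to 52.6 CPM in WT crypts and 71.2 to 231 in crypts labelled Mtgr1-/-, without overlap, although of the 5 markers Gfi1b alone passed (log2 fold change 2.62, adjusted p = 0.0404, limma, median of the list 1.85). In enteroids 3 of 4 tested tuft cell markers were lower at each time, with sums of 20.5 to 26.8 CPM against 10.4 to 15.2 at day 1 and 19.7 to 22.8 against 10.8 to 13.6 at day 3. No leukocyte marker passed the test, the smallest adjusted p being 0.0578 (Itgam at day 1, limma). Of 4 endothelial markers 1 was tested and did not pass, and their sum was at most 1.43 CPM outside WT crypts of mouse 3 (8.21). In bulk libraries, fewer cells of a type and less RNA per cell cannot be told apart, and the part of these shifts in the differences of the 9 factors was not tested.

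Over the 18 libraries, with each gene centred within its table, the genes most like each factor were named from 10589 genes with a mean of at least 50 at every time. The measure was Pearson's r on log2 values, whose points share 6 mice and the genotype difference. Hnf4g was closest to the magnesium transporter gene Slc41a2 (r = 0.987) and to Clic5 (0.985), Cdx1 to Pkdcc (0.958) and H2afx (0.957), Gata6 to Stradb (0.954) and Ergic3 (0.952), and Klf4 to H2-D1 (0.948) and Arl4a (0.946). Onecut2 was closest to Usp40 (0.935) and Gk5 (0.935), Gata4 to Echs1 (0.933) and Prkcsh (0.923), and Hnf4a to Vps25 (0.924) and Gorasp2 (0.910). The values were lowest for Pdx1, with Igtp (0.895) and Spg20 (0.881), and for Cdx2, with Zfp787 (0.877) and Dab2ip (0.843).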

How the data were processed

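Bulk RNA was measured in 18 libraries (3 WT and 3 Mtgr1-/- mice at 3 times), made with a stranded mRNA kit and single reads of 50 bp. According to the submitters' processing notes and the methods, the authors trimmed reads with fastp 0.20.0, quantified them with Salmon 1.3.0 against mouse GENCODE transcripts and normalized gene counts with DESeq2 1.26.0, in a separate table for each time. The deposited signal is this normalized count on a linear scale, which was used here. The deposited log2 fold changes, their standard errors, the Wald score and the p-values are the authors' own comparisons and were not used.

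Each table was tested on its own with limma 3.58.1 (trended eBayes, two-sided) in R 4.3.3, as log2 of the normalized count plus 1, for genes whose mean was 10 or more, 3 libraries against 3, with Benjamini-Hochberg adjustment over all genes and a threshold of 0.05. Fold changes on this scale understate those of low genes. Changes between times used 1 limma fit of 18 libraries in which libraries of a mouse were correlated (-0.0048). Ratios were compared by an exact permutation test. In each library 100% of values were whole multiples of 1 step (within 0.1 of a step). In 16 libraries the step differed enough from 1 to take them as recovered reads for edgeR 4.0.16 and DESeq2 1.42.0, and WT crypts of mouse 2 and day 3 Mtgr1-/- mouse 2 were left out of those fits.

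Same-numbered WT and Mtgr1-/- mice deviated together at day 1 (correlations across genes 0.116, 0.231 and 0.216). In crypts these correlations were also positive (0.0764, 0.274 and 0.346), although WT mouse 1 correlated more with Mtgr1-/- mouse 2 (0.201). At day 3 they were -0.0156 to -0.0023, and the labels state no pairing. The limma fits were also run on simulated counts, in which far fewer genes differed by genotype than were called in enteroids. That run does not measure their error in enteroids. Alternatives were pseudocounts of 0.1 and 8, other filters, rescalings, weights, a block, count tests and each library left out. The 9 genes and all lists were chosen with earlier results of these data known. Genes named from the lists passed the threshold with a log2 fold change of at least 1 in size, at most 4 per list and time, largest first. Others are named as chosen after their values were seen, or for their value at the other time. Marker lists are given by counts and sums, with few genes named. Muc2 was not analysed here, and the result of 1 list is not reported here. The same precision limit, 3 mice a group, holds for each comparison.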

Additional observations from a re-analysis of the deposited data

Results flagged for a closer look

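The genotype difference of 5 members changed with time, by the test of the change itself (limma over 18 libraries). Of 12145 genes tested, 41.4% were called from crypts to day 1 and 31.6% from crypts to day 3. With shares of this size over all genes, the count is not a result about the members. From crypts to day 1, the difference between Mtgr1-/- and WT on the log2 scale changed by 1.31 for Hnf4g, 1.60 for Klf4, 0.47 for Gata6 and -0.59 for Cdx1. From crypts to day 3, it changed by 1.15 for Hnf4g, 1.88 for Klf4 and 1.22 for Pdx1. Hnf4g kept both calls in all 11 alternatives and Cdx1 its call in all 11. The call of Gata6 was lost in 6 of 11, among them the scaling to the same total (0.12, adjusted p = 0.476), and those of Klf4 in 4 of 11 at day 1 and 2 of 11 at day 3. That of Pdx1 was lost in 4 of 11. Crypts and enteroids also differed in marker sums of goblet, Paneth and stem cells, and the part of these in the changes was not tested.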

How the results depend on the processing

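Of 783 alternative values of single members, 727 kept their side of the threshold, 44 lost a call, 12 gained one and 0 reversed a called value. With array weights, 2 members were called in crypts (Cdx1 and Klf4, both lower, from weights for which limma warned of incomplete convergence). With the same total for each library, 3 members were called at day 1, beside 2198 genes higher and 5606 lower over all genes. Over all genes in crypts, 205 were higher and 409 lower, against 982 and 1118 with array weights, 52 and 157 with edgeR, 434 and 766 with DESeq2, and 55 and 121 without WT mouse 1. With 1 library left out, the number of members called stayed at 0 in crypts, was 6 to 8 at day 1 and was 4 to 7 at day 3. Over all genes, these fits called 3120 to 3981 higher and 2972 to 3893 lower at day 1. At day 3 they called 3238 to 3894 higher and 2858 to 3801 lower. With 1 mouse left out, the members whose genotype difference changed numbered 2 to 4 from crypts to day 1, with 2 without WT mouse 1, WT mouse 2, Mtgr1-/- mouse 1 or Mtgr1-/- mouse 3. From crypts to day 3 they numbered 1 to 3, with 1 without WT mouse 1 or WT mouse 2. Between day 1 and day 3 they numbered 0 to 1, the latter being Cdx1 without Mtgr1-/- mouse 2. Counts over all genes are not given here for these fits of the changes, so these ranges are not a result about the members. With the mouse number as a replicate block, the called members numbered 0 in crypts, 9 at day 1 (Hnf4a gained) and 7 at day 3 (Gata6 gained, adjusted p = 0.0411, limma). Over all genes, that block called 174 higher and 388 lower in crypts, 4111 and 3916 at day 1, and 3720 and 3569 at day 3. Leaving out the mouse effect from the changes between times moved no member count (4, 3 and 0). Its counts over all genes are likewise not given here. The causes were not tested. With 3 mice a group, the spread between mice sets the precision, and each member had at least 229 normalized counts in every library.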
